A study of Mus musculus with 6 samples.

Results

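To ask how knockdown of Brca2 affected the Hippo branch of KPC cells, 10 genes were examined by symbol: the co-activators Yap1 and Wwtr1 (the gene of TAZ), the DNA-binding partners Tead1 and Tead3, the kinase Lats2, and the direct targets Ccn2, Ccn1, Ankrd1, Amotl2 and Ajuba. Ccn2 and Ccn1 are the current symbols of Ctgf and Cyr61. All 10 had a row among the 10616 genes listed. KPC cells are a mouse pancreatic ductal adenocarcinoma line. Both groups received a lentiviral pLKO.1 vector followed by puromycin selection. The shBrca2 cells (3 libraries) carried a short hairpin RNA against Brca2, and the shControl cells (3 libraries) a non-targeting hairpin. The cells grew in 2D culture, live cells were sorted, and the 3' ends of their poly(A) RNA were sequenced by a MARS-seq variant. Whether either population was a single clone is not given in the sources used here. Nor do the labels say that libraries of a group came from separate cultures, so p-values measure the spread between these libraries, which may be technical.

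The Hippo pathway restrains tissue growth through a kinase cascade in which MST kinases activate LATS kinases, and LATS kinases phosphorylate YAP and TAZ so that they stay out of the nucleus. When the cascade is off, YAP and TAZ enter the nucleus, bind TEAD factors and switch on genes of growth, adhesion and matrix. Several of these targets, among them LATS2, AMOTL2 and AJUBA, act back on the pathway, and YAP activity is a known feature of pancreatic cancer. Because YAP and TAZ are controlled mainly by phosphorylation and location, their mRNA levels do not measure their activity, while the mRNA of their targets is commonly read as an indirect measure of it.

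Since direct targets are bound by TEAD factors, the start of each gene was searched for the core TEAD motif, GGAATG on the gene's strand or its complement CATTCC, in the 250 bases before each RefSeq start site (assembly GRCm38.p6, which is mm10). The set of RefSeq promoters used here held such a window for 8 of the 10 genes. Tead1 and Ccn2 were missing from that set, although RefSeq lists both genes. The motif was present for 7 of these 8 (Yap1, Wwtr1, Tead3, Ccn1, Ankrd1, Amotl2 and Ajuba), and for 14.4% of the 27025 genes with a window. Genes with several start sites had several chances to match. The 27025 genes, and all windows counted below, leave out 1 chromosome that holds none of the 10 genes. The promoters of Ajuba, the 1 gene of the 10 that was called different, and of Ccn1 and Ankrd1, which are canonical targets, are shown 5′ to 3′ with the TEAD motif in capitals. They lie on the minus strand at chr14:54577662-54577911, chr3:145649986-145650235 and chr19:36119845-36120094, in that order.
Ajuba: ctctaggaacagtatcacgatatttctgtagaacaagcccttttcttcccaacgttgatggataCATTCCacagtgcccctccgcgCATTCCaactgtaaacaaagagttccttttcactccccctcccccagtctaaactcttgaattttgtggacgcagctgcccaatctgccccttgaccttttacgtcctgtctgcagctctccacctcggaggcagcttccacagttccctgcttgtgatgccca
Ccn1: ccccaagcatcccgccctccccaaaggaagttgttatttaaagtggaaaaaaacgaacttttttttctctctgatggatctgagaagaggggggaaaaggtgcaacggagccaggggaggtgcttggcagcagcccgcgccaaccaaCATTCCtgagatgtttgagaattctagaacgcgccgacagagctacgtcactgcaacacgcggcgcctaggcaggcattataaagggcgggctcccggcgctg
Ankrd1: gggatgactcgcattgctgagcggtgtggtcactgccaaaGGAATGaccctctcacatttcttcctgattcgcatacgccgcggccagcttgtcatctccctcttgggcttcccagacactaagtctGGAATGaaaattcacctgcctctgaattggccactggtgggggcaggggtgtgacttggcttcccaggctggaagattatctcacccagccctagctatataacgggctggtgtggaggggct
Ajuba held the motif 186 and 164 bases before its start, counted to the first base of the motif. Ankrd1 held it at 210 and 123 bases, and Ccn1 at 103 bases. Among the genes not printed, 1 of the Tead3 windows also held a pair, at 123 and 114 bases. Of all windows, 1.02% held it at least 2 times. The AP-1 motif TGANTCA, which is often found beside TEAD sites, was in 6.75% of all windows and the CArG box bound by SRF in 1.47%. Neither was found in a window of the 8 genes. A match describes the sequence only and does not show that TEAD bound there in these cells.

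**Figure D1:**
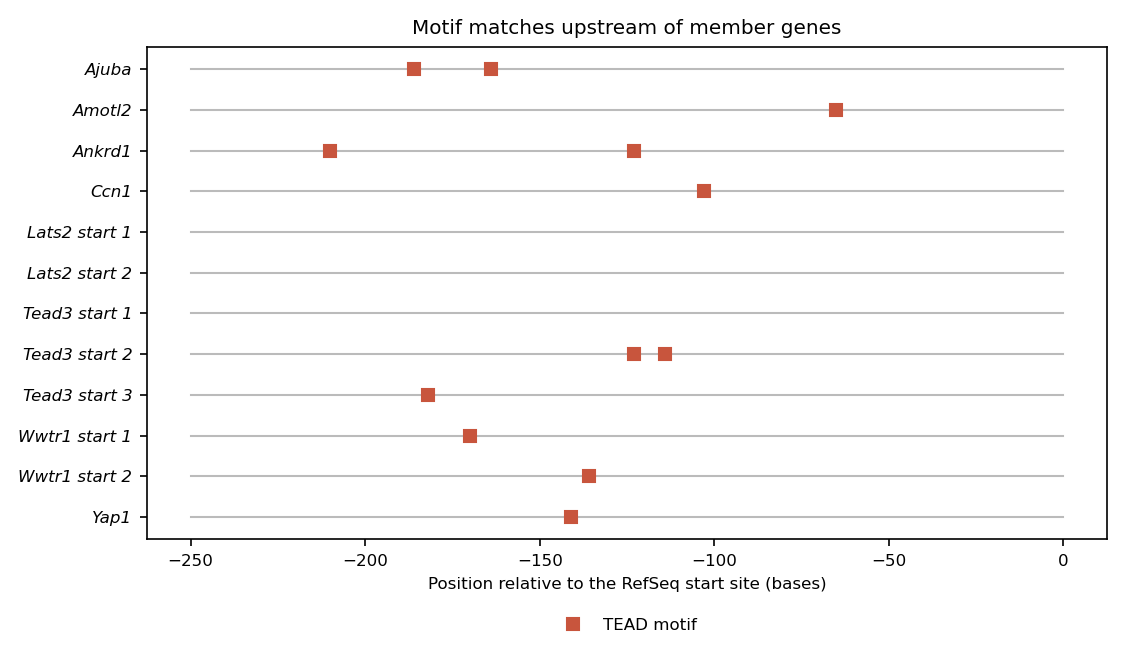
Positions of the TEAD motif in the 250 bases before each RefSeq start site of the 8 genes with a window. The horizontal axis gives bases relative to the start site, each grey line is 1 window, and squares mark the first base of a match. Lats2 had no match in either of its windows, while Ajuba, Ankrd1 and Tead3 each had a pair of matches in a single window.

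Library totals ranged from 1519340 to 2452467 counts, with the lowest in shBrca2 replicate 1. The targeted gene Brca2 had a normalized count (count divided by the DESeq2 size factor) of 13.6, 10.4 and 12.2 in shBrca2 and 33.3, 43.6 and 32.6 in shControl, so the libraries followed their labels. The log2 fold change, shBrca2 over shControl, was -1.61 ± 0.44 (SE; DESeq2 adjusted p = 0.029). This call was lost without shBrca2 replicate 2 (adjusted p = 0.152 by DESeq2), shBrca2 replicate 3 (0.233) or shControl replicate 2 (0.371). No pair of libraries within a group matched within counting noise, with a chi-square per degree of freedom of at least 4.65. Libraries of a group also differed widely in genes that did not follow the groups, and the tropomyosin gene Tpm4 had 1043, 250 and 665 normalized counts in shBrca2 replicates 1 to 3 and 929, 200 and 156 in shControl replicates 1 to 3. For this reason each gene is given library by library, always in the order of replicates 1, 2 and 3. Genes were called by the DESeq2 likelihood ratio test, fitted over the whole table. A call needed a base mean (the mean normalized count of the 6 libraries) above 5, a log2 fold change beyond 0.5 in either direction and an adjusted p below 0.1.

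Of the 10 genes, Ajuba was lower in shBrca2 and 0 were higher at these thresholds. Of all 9997 genes tested, 0.5% were called lower and 0.77% higher, or 1.27% in either direction. An unadjusted p under 0.05 was found for 2 of the 10 genes, Ajuba and Ccn1, and for 8.66% of all genes. The edgeR quasi-likelihood test also called Ajuba lower and 0 of the 10 higher, against 0.473% of all genes lower and 0.858% higher by that test. The log2 fold change of all 10 was below 0, from -0.82 for Ajuba to -0.05 for Wwtr1, with a median of -0.23. Among all tested genes 50.2% were below 0 and the median was -0.0009. The count of genes below 0 was 8 without shBrca2 replicate 3 or without shControl replicate 1. In 4 of the 10 genes (Ajuba, Ccn1, Tead3 and Amotl2) every shBrca2 library lay below every shControl library. Over all tested genes such a separation was seen with shBrca2 lower in 10.4% and with shBrca2 higher in 10.2%. Genes of 1 pathway are not independent, and these 10 were chosen with earlier results of these data known. The shares describe the list without a test.

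**Figure D2:**
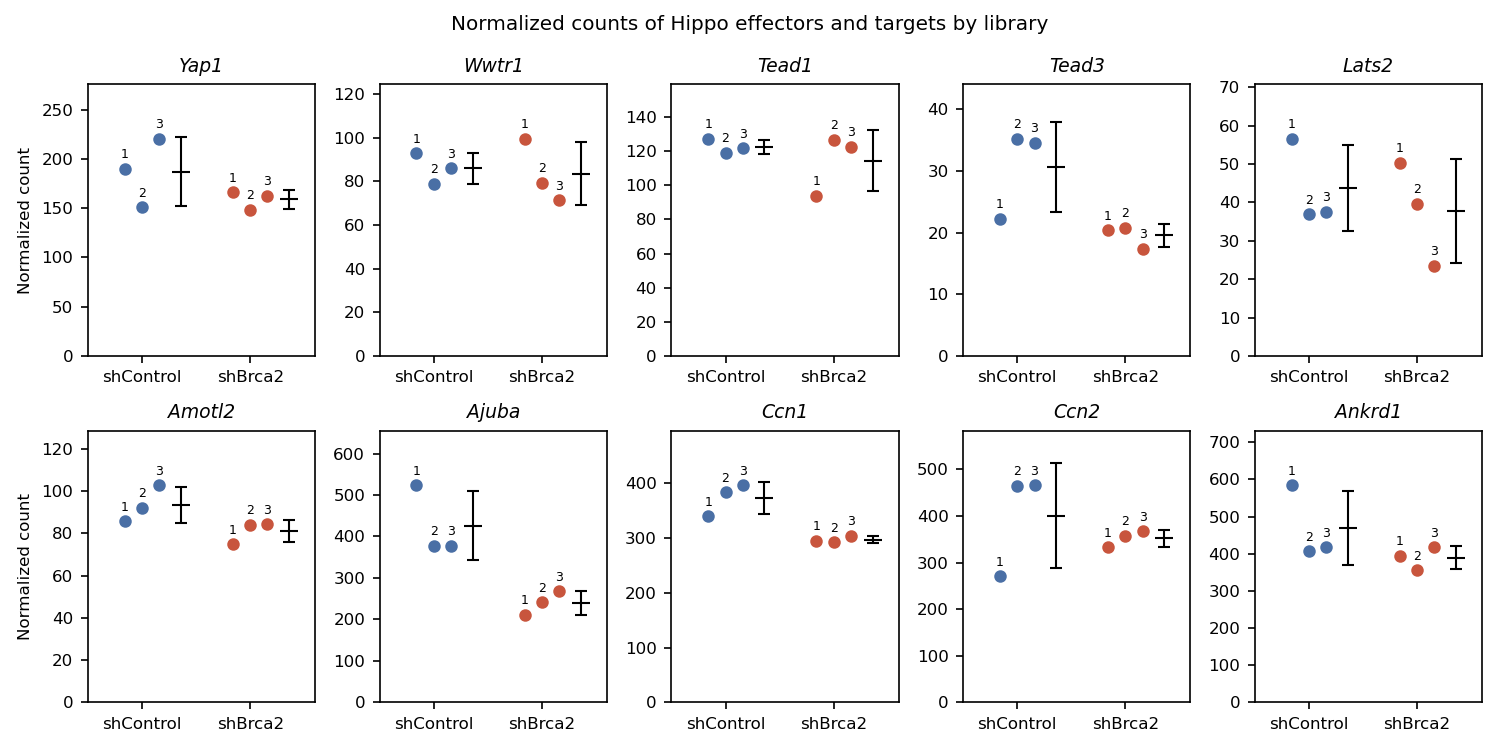
Normalized counts (vertical axis, starting at 0) of the 10 genes in each shControl library (blue) and shBrca2 library (red). Numbers above the points are replicates, and the black mark and bar give the group mean and SD (n = 3). Ajuba lies between 211 and 268 in shBrca2 and between 378 and 523 in shControl, while the groups overlap for Yap1, Wwtr1, Tead1, Lats2, Ccn2 and Ankrd1.

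The co-activators were considered first. Yap1 (chromosome 9, 7931999 to 8004638, minus strand, protein coding) had normalized counts of 166, 148 and 163 in shBrca2 and 190.0, 151 and 220.5 in shControl. The shBrca2 libraries lay close together, and shControl replicate 2 fell within their range. Its log2 fold change was -0.23, and the 95% interval ran from -0.64 to 0.17 (DESeq2 adjusted p = 0.871). Wwtr1 (chromosome 3, 57455644 to 57575910, minus strand) had 99.4, 79.4 and 71.4 in shBrca2 and 93.0, 78.8 and 86.0 in shControl. Both the highest and the lowest library belonged to shBrca2. For Wwtr1 the log2 fold change was -0.05, with an interval from -0.55 to 0.44 (DESeq2 adjusted p = 0.988). A difference was therefore not detected for either co-activator, and the intervals still include a change of more than 0.4 on the log2 scale in at least 1 direction. Within a library, the ratio of Yap1 to Wwtr1 counts was 1.94 ± 0.311 in shBrca2 and 2.17 ± 0.344 in shControl (SD, n = 3).

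The TEAD factors bring YAP and TAZ to DNA. Tead1 (chromosome 7, 112679356 to 112906784) had 94.0, 127 and 123 normalized counts in shBrca2 and 127, 119 and 122 in shControl. Only shBrca2 replicate 1 stood below the others, and the log2 fold change was -0.09 with an interval from -0.53 to 0.35 (adjusted p = 0.975 by DESeq2). Tead3 (chromosome 17, 28331671 to 28350805, minus strand) had 20.4, 20.8 and 17.4 in shBrca2 and 22.2, 35.2 and 34.6 in shControl. The groups did not overlap, but shControl replicate 1 was within 2 counts of shBrca2 replicates 1 and 2. With raw counts of 15 to 42 per library, its log2 fold change of -0.66 ± 0.42 (SE) did not pass (adjusted p = 0.727 by DESeq2).

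The remaining TEAD genes, which are not among the 10, were taken from a list of TEAD and VGLL factors. Tead2 (chromosome 7, 45215792 to 45233468, plus strand) was lower in shBrca2, with 99.4, 138 and 88.8 normalized counts against 187, 215 and 189 in shControl. The log2 fold change was -0.85 ± 0.22 (SE; DESeq2 adjusted p = 0.0193), and the groups did not overlap. The call was lost without shBrca2 replicate 1 (adjusted p = 0.178 by DESeq2), shBrca2 replicate 3 (0.301) or shControl replicate 2 (0.327), while the log2 fold change stayed between -1.07 and -0.72. Tead4 stood at -0.02 on the log2 fold scale, and its interval ran from -0.79 to 0.75. The TEAD cofactor gene Vgll4 also had -0.02, and Vgll1, Vgll2 and Vgll3 did not have a row. The searched window before Tead2 did not hold the TEAD motif.

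Counts at 3' ends do not scale with transcript length, so the TEAD genes were also compared within each library as shares of their summed counts. The summed TEAD level was 249, 319 and 251 normalized counts in shBrca2 and 376, 395 and 371 in shControl. Tead2 made up 39.9%, 43.3% and 35.4% of TEAD counts in shBrca2 and 49.7%, 54.4% and 50.9% in shControl. Tead1 made up 37.7%, 39.8% and 49.0% in shBrca2 and 33.9%, 30.1% and 32.8% in shControl. Tead2 was thus the most counted TEAD gene in every shControl library, and of the shBrca2 libraries replicates 1 and 2 also had most counts from Tead2 and replicate 3 from Tead1. These shares were computed after the values were seen and were not tested. They rest on 183 to 471 TEAD counts per library and assume that each gene's 3' end was captured equally well.

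**Figure D3:**
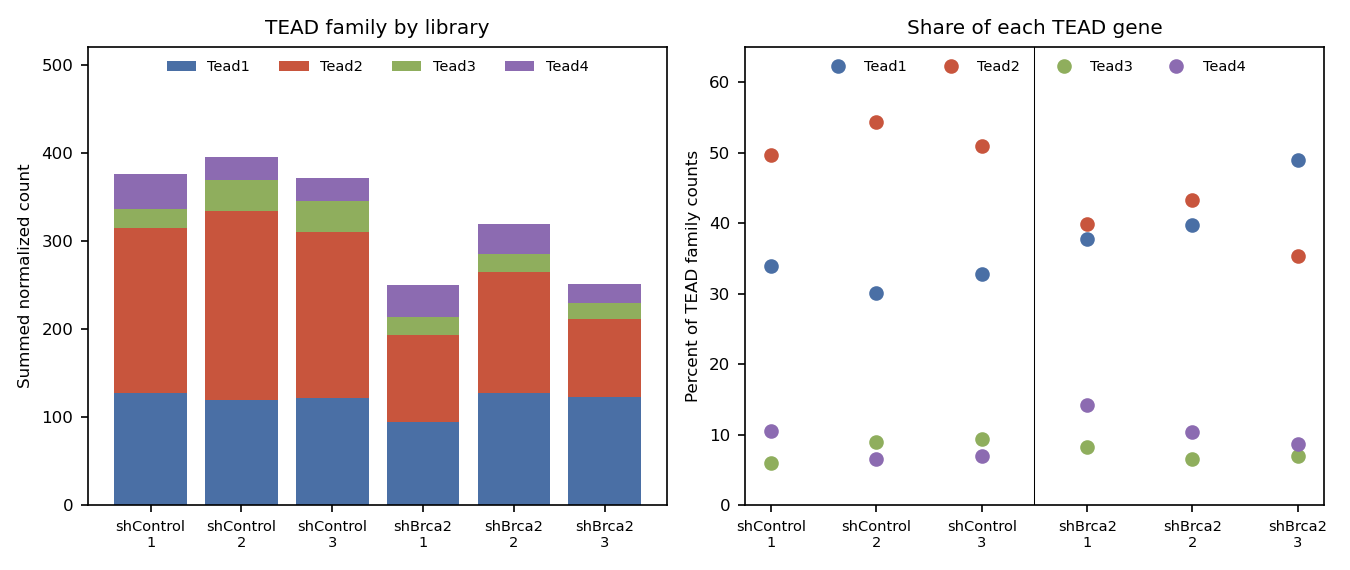
Left, normalized counts of Tead1, Tead2, Tead3 and Tead4 stacked for each library (vertical axis, summed normalized count). Right, the percent of each library's TEAD counts from each gene. The summed level lies between 371 and 395 in shControl and between 249 and 319 in shBrca2, with Tead2 as the component that differs most.

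Of the genes that act back on the pathway, Ajuba (chromosome 14, 54567469 to 54577661, minus strand, protein coding) had the smallest p of the 10 genes. It encodes a LIM protein of cell junctions that binds and restrains LATS kinases. Its normalized counts were 211, 242 and 268 in shBrca2 and 523, 378 and 378 in shControl. The group means were 240 ± 28.5 and 426 ± 84.0 (SD, n = 3), a ratio of 0.564. Every shBrca2 library lay below every shControl library, and shControl replicate 1 stood above the other shControl libraries. The log2 fold change was -0.82 ± 0.19 (SE), with an interval from -1.19 to -0.45 (DESeq2 adjusted p = 0.00471). By p, Ajuba ranked 36 among all genes. By edgeR the adjusted p was 0.0611. Without shControl replicate 1 the log2 fold change was -0.65 and Ajuba remained called (adjusted p = 0.0609 by DESeq2). Without shBrca2 replicate 1, the library of lowest depth, the log2 fold change was -0.74 and the adjusted p was 0.101 by DESeq2, just past the threshold.

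Wtip and Limd1 encode the other members of the AJUBA family of LIM proteins. Wtip had 40.9, 52.0 and 50.5 normalized counts in shBrca2 and 73.8, 67.1 and 57.3 in shControl. Its groups did not overlap either, but the log2 fold change of -0.46 ± 0.29 (SE) did not pass (adjusted p = 0.727 by DESeq2). For Limd1, named after its values were seen, the log2 fold change was 0.05 ± 0.19 (SE). Whether Ajuba differed from its relatives was not tested.

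Lats2 and Amotl2 are targets that also inhibit YAP. Lats2 (chromosome 14, 57689662 to 57746212, minus strand), a kinase of the core cascade, had 50.4, 39.7 and 23.5 normalized counts in shBrca2 and 56.6, 36.9 and 37.6 in shControl. Both groups held a high replicate 1, and the log2 fold change was -0.22 with an interval from -0.94 to 0.50 (adjusted p = 0.947 by DESeq2). Amotl2 (chromosome 9, 102717091 to 102733418, plus strand), an angiomotin that holds YAP at junctions, had 74.9, 84.1 and 84.4 in shBrca2 and 85.9, 92.2 and 103 in shControl. The highest shBrca2 and the lowest shControl library were less than 2 counts apart, and the log2 fold change was -0.20 with an interval from -0.68 to 0.27 (adjusted p = 0.919 by DESeq2).

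The matricellular proteins CCN1 and CCN2 are widely used readouts of YAP and TAZ. Ccn1 (chromosome 3, 145646971 to 145649985, minus strand) had 296, 292 and 305 normalized counts in shBrca2 and 341, 384 and 396 in shControl. The shBrca2 libraries differed by less than 13 counts among themselves and lay below every shControl library. Ccn1 stood at a log2 fold change of -0.33 ± 0.16 (SE), and its interval ran from -0.65 to -0.01. The DESeq2 p was 0.0435 unadjusted and 0.555 adjusted, so that it failed the correction over all genes. Ccn2 (chromosome 10, 24595442 to 24598683) had 332, 357 and 367 in shBrca2 and 271, 465 and 466 in shControl. Here shControl replicate 1 was the lowest of the 6 libraries and the other shControl libraries were the highest. Its log2 fold change was -0.18 with an interval from -0.59 to 0.22 (adjusted p = 0.907 by DESeq2). Without shControl replicate 1 it was -0.40, with an adjusted p of 0.363 by DESeq2. The ratio of Ccn2 to Ccn1 counts was 0.795 in shControl replicate 1 and between 1.12 and 1.22 in the other libraries. Ccn2 overlaps the predicted gene Gm15270 on the other strand, and reads of the pair cannot be told apart if strand was ignored, which the sources used here do not give.

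Ankrd1 (chromosome 19, 36111965 to 36119844, minus strand) encodes an ankyrin repeat protein of the nucleus and is a strong TEAD target in many cells. It had 395, 355 and 418 normalized counts in shBrca2 and 584, 407 and 417 in shControl. The shControl mean of 469 ± 99.5 (SD, n = 3) was raised by replicate 1, and the other shControl libraries fell within the shBrca2 range. For Ankrd1 the log2 fold change was -0.27 with an interval from -0.63 to 0.09 (adjusted p = 0.772 by DESeq2), and without shControl replicate 1 it was -0.08.

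The library shControl replicate 1 stood apart for several of these genes. It was the highest library for Tead1, Lats2, Ankrd1 and Ajuba and the lowest for Ccn2, while shControl replicate 3 was the highest for Yap1, Ccn1, Ccn2 and Amotl2. Averaged over the 10 genes, the deviation from each gene's mean on the log2(normalized count + 1) scale was 0.15, 0.10 and 0.19 in shControl and -0.12, -0.13 and -0.19 in shBrca2. Of the SRF and MRTF genes, Tagln and Myl9, named after their values were seen, were high in this library. Tagln had 53.6 normalized counts there and 10.4 to 20.4 in the other libraries, and Myl9 had 23.2 there and 3.48 to 5.67 in the others. More abundant genes of the list, also named after their values were seen, were mixed. Among the shControl libraries, replicate 1 was the lowest for Tagln2, Flna and Actn1 and the highest for Tpm1, Cnn2, Vcl and Tpm2. The summed level of 18 genes of the list was 10640 to 10700 in shControl and 8197 to 10540 in shBrca2. Their part in the values of the 10 genes was not tested. The values of Tpm4 split the libraries in another way, and with 1 surrogate variable in the model the log2 fold change was -0.91 for Ajuba (adjusted p = 0.000373 by DESeq2), -0.28 for Ccn1 and 0.04 for Ccn2, so that Ccn2 changed sign.

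**Figure D4:**
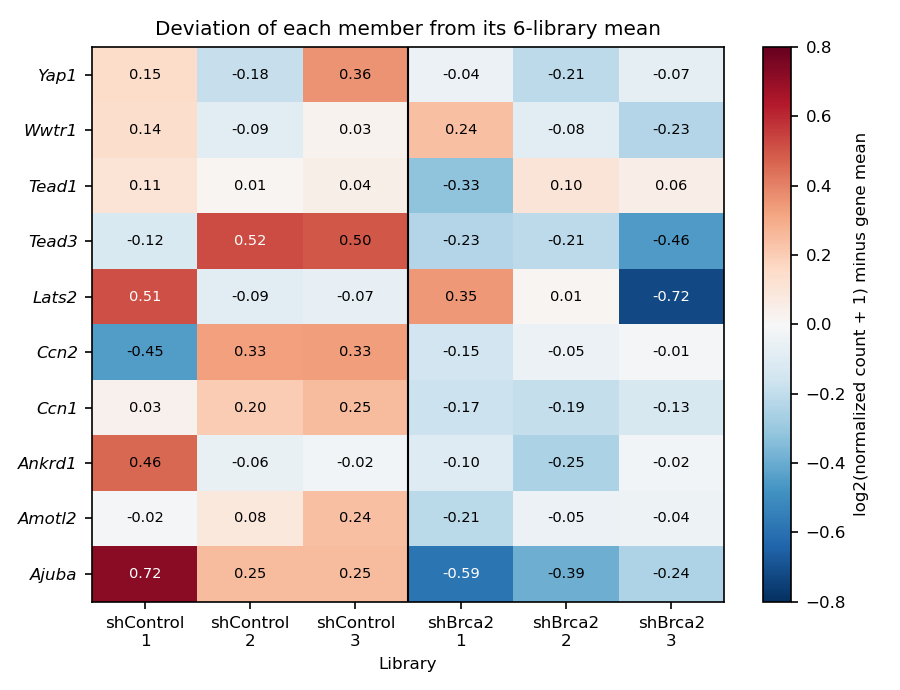
Deviation of each gene (rows) in each library (columns) from its mean over the 6 libraries, on the log2(normalized count + 1) scale, with red above and blue below the mean. Ajuba runs from 0.72 in shControl replicate 1 to -0.59 in shBrca2 replicate 1, and Ccn2 is at -0.45 in shControl replicate 1 against 0.33 in the other shControl libraries.

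The rest of the pathway was read from gene lists. Of 23 Hippo kinases and upstream regulators, 20 were tested and 0 were called in either direction by DESeq2 or by edgeR, and 0 had an unadjusted p under 0.05. Their median log2 fold change was -0.02, with 11 below and 9 above 0. The MST kinase genes Stk3 and Stk4 had log2 fold changes of 1.08 ± 0.60 and -0.17 ± 0.27 (SE), at base means of 12.5 and 83.0. Stk3 had 15.0, 20.8 and 14.8 normalized counts in shBrca2 and 12.1, 4.19 and 7.91 in shControl, which did not overlap but did not pass (adjusted p = 0.640 by DESeq2). Lats1 (-0.01 ± 0.26, SE) and Nf2 (0.06 ± 0.22, SE), which encodes the upstream tumor suppressor merlin, had log2 fold changes near 0.

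Of 28 other genes described as YAP and TAZ targets, 24 had a row and 19 were tested. Ccnd1, Axl and Thbs1 were called lower, 0 were called higher, and the median log2 fold change was -0.20. Among all tested genes 0.5% were called lower and 0.77% higher. The list was chosen with earlier results of these data known, so its counts depend on that choice and are a description. Ccnd1 encodes cyclin D1, which drives entry into S phase. It had 794, 999 and 612 normalized counts in shBrca2 and 1458, 1489 and 1882 in shControl, a log2 fold change of -1.01 ± 0.19 (SE; DESeq2 adjusted p = 4.5e-05). Ccnd1 overlaps the gene Lto1, which has its own row, so its count is uncertain. Axl, a receptor tyrosine kinase, had 385, 403 and 466 in shBrca2 and 759, 631 and 552 in shControl. Its log2 fold change was -0.63 ± 0.17 (SE; DESeq2 adjusted p = 0.029). By edgeR its adjusted p was 0.108 and it was not called. Thbs1, which encodes the matrix protein thrombospondin 1, had raw counts of 1, 5 and 5 in shBrca2 and 22, 15 and 20 in shControl (adjusted p = 0.0678 by DESeq2). Ccnd1 remained called in every fit that left out 1 library, while Axl was lost without shBrca2 replicate 1 or 2 or shControl replicate 1 or 2, with DESeq2 adjusted p-values of 0.248, 0.152, 0.18 and 0.236 in that order. Thbs1 was called in 0 of these fits. Leaving out shBrca2 replicate 1 or 3 gave it a DESeq2 adjusted p of 0.29 or 0.31, leaving out shControl replicate 1 or 2 gave 0.268 or 0.145, and the other 2 fits gave it none.

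The other tested targets lay on both sides of 0, with 11 of the 19 below and 8 above. Igfbp3 (-0.47 ± 0.17, SE) and Foxf2 (0.62 ± 0.21, SE), named after their values were seen, had unadjusted p-values under 0.05 and DESeq2 adjusted p-values of 0.214 and 0.161. Foxf2 had 234, 216 and 225 normalized counts in shBrca2 and 181, 142 and 118 in shControl. It was called higher without shControl replicate 1. Myof, F3 and Areg, also targets named after their values were seen, had log2 fold changes of 0.27, 0.24 and 0.25 and did not pass.

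**Figure D5:**
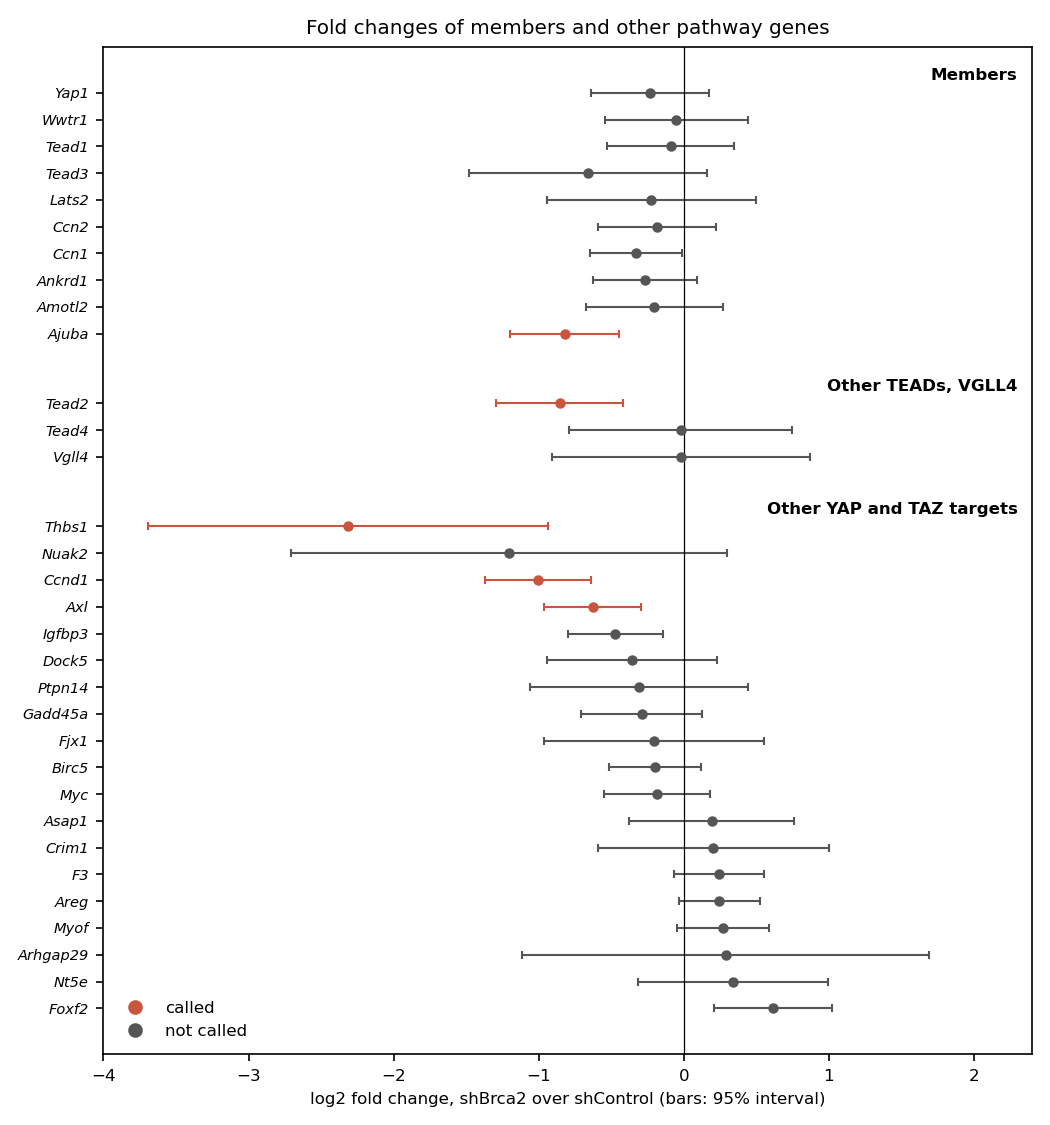
Log2 fold changes, shBrca2 over shControl (horizontal axis), with 95% intervals for the 10 genes, the other TEAD and VGLL factors and the 19 tested other targets. Red points were called and grey points were not. Ajuba, Tead2, Ccnd1, Axl and Thbs1 lie below 0 and were called, the intervals of Ccn1 and Igfbp3 also end below 0 without a call, and Foxf2 lies farthest above 0.

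The AP-1 factors and the SRF and MRTF genes were examined next. Of 10 AP-1 factors, 7 were tested and 0 were called by DESeq2 or edgeR. Jun had 46.3, 30.2 and 41.8 normalized counts in shBrca2 and 57.6, 78.8 and 60.3 in shControl. Its log2 fold change was -0.75 ± 0.31 (SE), and the DESeq2 p was 0.017 unadjusted and 0.391 adjusted. It was the 1 AP-1 gene with an unadjusted p under 0.05, and Junb had -0.26 ± 0.20 (SE). Of 19 SRF and MRTF genes, which include targets of the actin-regulated co-activators and the factors themselves, 16 were tested and Zyx was called lower. The share called lower among all tested genes was 0.5%. Zyx encodes the focal adhesion protein zyxin. It had 279, 187 and 192 normalized counts in shBrca2 and 342, 432 and 315 in shControl, a log2 fold change of -0.73 ± 0.21 (SE; DESeq2 adjusted p = 0.0417). It was not called by edgeR (adjusted p = 0.121), and the DESeq2 call was lost without shBrca2 replicate 2 (adjusted p = 0.265), shBrca2 replicate 3 (0.511) or shControl replicate 2 (0.583).

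The genes whose profile over the 6 libraries was most like Ccn2 were Gprc5a, Ncapd3, Ap2b1, Xpo6 and Arid1a, with root mean square differences of z-scored log2(normalized count + 1) from 0.256 to 0.327 among 5680 genes with a base mean of at least 50. By likeness to Ccn2, Amotl2 ranked 529, Ccn1 744, Tead1 2770, Yap1 2848, Ajuba 3207, Wwtr1 4475 and Ankrd1 4826. For Yap1 the nearest were Nagpa (0.104), Haus4, Itpripl2, Plekha2 and Zfp516, while Amotl2 ranked 538, Ccn1 581, Ajuba 659, Ankrd1 756, Wwtr1 1112, Tead1 2436 and Ccn2 2763. Tead3 and Lats2 were below the base mean minimum and were not ranked. With 6 libraries, many genes have close profiles, and these ranks are a description.

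Marker genes were used to check the cell type. The keratin genes of ductal epithelium were abundant, with 8219 to 10005 normalized counts for Krt18 and 3655 to 4707 for Krt19, and Cdh1 had 610.3 to 1218. Epcam and Cldn7 were near the lower end of the table, with 3.78 to 9.09 and 3.48 to 7.07. Of the epithelial list, Krt7 (1.21 ± 0.20, SE) and Sox9 (1.20 ± 0.34, SE) had higher levels in shBrca2, where the DESeq2 adjusted p was 2.1e-06 for Krt7 and 0.0391 for Sox9. Sox9 lost its call when shBrca2 replicate 2 or 3 was left out (DESeq2 adjusted p = 0.151 and 0.64) and when shControl replicate 1 or 2 was (0.187 and 0.462). The summed level of 8 epithelial genes was 16600 to 17380 in shBrca2 and 17460 to 18590 in shControl. Of 10 fibroblast markers only Col1a2 and Thy1 had a row, with a summed level of 17.7 to 22.7 in shBrca2 and 13.8 to 42.4 in shControl, the highest in shControl replicate 1. Of 8 leukocyte markers only Cd68 had a row (11.1 to 20.4), and of 6 acinar markers only Cela1 (31.3 to 58.3). Of 6 endothelial markers, 0 had a row. How genes were selected for the deposited table is not given in the sources used here. A missing row therefore does not show that a gene was not expressed. In bulk libraries, fewer cells of a type and less RNA per cell cannot be told apart.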

How the data were processed

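Count data of 6 mouse libraries were used, 3 shBrca2 and 3 shControl, grouped by the source name in the labels. The authors deposited 1 table of raw counts, with 1 row per gene symbol and no normalization. The submitters' processing notes name bcl2fastq, cutadapt, STAR 2.4.2a, HTSeq, DESeq2 and mm10. The gene annotation, strand setting and molecular identifiers are not given in the sources used here, so a count may not be 1 molecule.

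The table was fitted whole with DESeq2 1.42.0 in R 4.3.3 (median-of-ratios size factors, likelihood ratio test of group, Benjamini-Hochberg over 9997 genes), with the test and thresholds of the study's methods. Fold changes were not shrunken, and 95% intervals are normal intervals from the SE. Alternatives were edgeR 4.0.16, a Wald test, other size factors, filters and thresholds, 1 surrogate variable (sva 3.50.0), each library left out, and, added after seeing the data, a fit with the dependence of counts on transcript GC content removed per library by loess (span 0.5; GENCODE vM39, 98.4% of genes matched). The pipeline was tested on simulated data.

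The genes and lists were chosen with earlier results of these data known. Named besides the 10 were the called genes of each list, or else the 2 of smallest p, with Brca2, Stk3, Stk4, Lats1, Nf2, Tead2 and Tead4, and the 5 nearest profiles of Ccn2 and Yap1. Older symbols were matched through RefSeq synonyms. Promoters and positions are from RefSeq (GRCm38.p6).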

Additional observations from a re-analysis of the deposited data

How the results depend on the processing

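No paired analysis was possible because no label pairs a shBrca2 library with a shControl library. Ajuba was the 1 gene of the 10 called under every alternative that kept all 6 libraries, with a log2 fold change from -0.91 to -0.66 and an adjusted p from 0.000373 to 0.0782, the highest with the GC trend removed. Over the fits that each left out 1 library, from 0 to 1 of the 10 genes were called lower, with 0 without shBrca2 replicate 1. The median log2 fold change of the 10 genes ranged from -0.32 (without shControl replicate 2) to -0.21 in those fits and from -0.24 to -0.22 otherwise. In those fits, genes near 0 changed sign: Wwtr1 ranged from -0.19 to 0.052, Tead1 from -0.169 to 0.022, Lats2 from -0.47 to 0.041, Tead4 from -0.149 to 0.204, Stk4 from -0.36 to 0.001, Lats1 from -0.129 to 0.061 and Nf2 from -0.028 to 0.126. Ccn2 moved to 0.038 with 1 surrogate variable.

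Over the same fits, called lower were from 0 to 1 of the other TEAD and VGLL genes, from 1 to 2 of the other YAP and TAZ targets and from 0 to 1 of the SRF and MRTF genes, and from 0 to 1 of the other targets were called higher. Called lower among SRF and MRTF genes were 0 with edgeR and 0 with the GC trend removed, which also left 1 of the other targets lower (Ccnd1) and 1 higher (Foxf2). The cause was not tested. Of 156 comparisons of the 10 genes with an alternative, 149 kept direction and call, 1 was weaker and 6 reversed, and 4 more had no adjusted p. Changed thresholds and the Wald test kept the main fold changes, so direction could not differ there. Genes other than Ajuba had no call to lose. Of the 10 genes, depth limits Tead3 and Lats2 most, as their base means were 25.1 and 40.8.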
